A study of Mus musculus with 18 samples.

Results

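The IL-6 and IL-12 family genes described here were 8 rows of the count table, chosen by name out of 20615 genes: Il6, Il12a, Il12b, Il23a, Il27, Ebi3, Il6ra and Il6st. They were measured by RNA-seq in bone marrow derived macrophages (BMDMs), which are macrophages grown from mouse marrow with M-CSF over 7 days. The marrow came from C57BL/6 (B6) mice or from C57BL/6.NOD-Aec1Aec2 mice (SjSS), a B6 line that carries intervals of NOD chromosomes 3 (Aec1) and 1 (Aec2) and develops a disease like Sjögren's syndrome. Mice were female and 7 to 12 weeks old, and 3 samples were sequenced for each of 6 groups. Control BMDMs of each strain were untreated, CpG BMDMs received 1 µM CpG (an oligonucleotide that activates TLR9) for 6 h, and AC BMDMs received apoptotic cells for 2 h, were washed and were kept for 3 h more, times that are those of the labels. The apoptotic cells were dexamethasone-killed thymocytes at 5 per BMDM, taken from thymi of both strains, and the strain of the thymocytes given to each culture was not stated for these samples. Marrow of several mice of each strain was used, but the labels do not say which samples share a mouse, so p-values measure the spread between these samples. The 18 libraries held 30688336 to 57139662 counts each.

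These cytokines and receptors work in pairs. IL-6 binds the receptor chain encoded by Il6ra and then the shared signalling chain gp130, encoded by Il6st. The IL-12 family members are dimers built from a few shared chains: p40 (Il12b) joins p35 (Il12a) to make IL-12 and p19 (Il23a) to make IL-23, while Ebi3 joins p28 (Il27) to make IL-27 and p35 to make IL-35. In macrophages these genes are known to be induced through Toll-like receptors, NF-κB and interferon regulatory factors, and the IL-12 family dimers direct T cell responses.

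Before the values, the start regions of 3 members are shown, because Il6 and Il12b are the cytokine genes called with both stimuli in both strains on more than a few counts, and Il6ra is the member that fell with both. They are the 250 bases before the annotated start in RefSeq (GRCm38.p6), and 6 of the 8 members had an entry, all but Il23a and Il27. Capitals mark matches to GGGNNTTT (part of an NF-κB site), TGCAAT (the core of a C/EBP site) or TGANTCA (an AP-1 site), searched on both strands together with an interferon-stimulated response element (GAAA, any 2 bases, then GAAA again).
Il6, chr5:30012864-30013113, plus strand: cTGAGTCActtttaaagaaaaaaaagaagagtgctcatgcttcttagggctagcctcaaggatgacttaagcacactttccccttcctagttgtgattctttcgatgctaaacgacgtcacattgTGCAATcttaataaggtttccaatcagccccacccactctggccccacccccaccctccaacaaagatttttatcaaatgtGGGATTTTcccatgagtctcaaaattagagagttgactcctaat
Il12b, chr11:44399813-44400062, plus strand: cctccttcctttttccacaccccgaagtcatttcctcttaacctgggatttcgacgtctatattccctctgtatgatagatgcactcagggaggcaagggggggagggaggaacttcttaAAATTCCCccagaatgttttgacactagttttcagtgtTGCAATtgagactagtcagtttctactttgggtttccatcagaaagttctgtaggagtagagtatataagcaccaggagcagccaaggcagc
Il6ra, chr3:89913197-89913446, minus strand: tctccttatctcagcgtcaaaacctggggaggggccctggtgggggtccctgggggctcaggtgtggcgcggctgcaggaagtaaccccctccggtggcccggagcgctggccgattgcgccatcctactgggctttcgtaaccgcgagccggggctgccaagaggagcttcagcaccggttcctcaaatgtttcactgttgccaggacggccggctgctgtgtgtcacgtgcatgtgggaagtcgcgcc
The Il6 window held an NF-κB match, GGGATTTT, whose first base lay 44 bases before the start, a C/EBP match at 125 bases and an AP-1 match at 249 bases. The Il12b window held an NF-κB match on the minus strand, written AAATTCCC on the plus strand, at 130 bases and a C/EBP match at 92 bases. One of the Il12a windows held a C/EBP match at 156 bases, and the windows of Il6ra, Il6st and Ebi3 held none of the 4 motifs. Over the 32851 windows of the table, 13.3% held the NF-κB letters, 7.32% the C/EBP letters, 6.75% the AP-1 letters and 2.98% the interferon element, so single matches of this kind are common.

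Il6 was close to 0 in both untreated groups and reached its highest level in SjSS BMDMs given AC. Levels are given as CPM, the counts per library size scaled by TMM to a common total. In the 3 control samples they were 0.176, 0.0626 and 0.071 in B6 and 0, 0.148 and 0.0544 in SjSS. With AC the values were 3.71, 6.36 and 5.75 in B6 and 55.5, 75.7 and 76.8 in SjSS. Every SjSS AC sample therefore exceeded every other sample of the series for this gene. With CpG the order of the strains was turned around, at 26.5, 20.6 and 22.2 CPM in B6 and 17.3, 12.4 and 15.3 in SjSS.

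The rise of Il6 with AC passed the test in both strains and was larger in SjSS. Here and below, changes given without a unit are log2 fold changes. It was 5.58 (SE 0.38, n = 3 per group, edgeR adjusted p = 1.26e-09) in B6 and 10.21 (SE 0.35, edgeR adjusted p = 1.35e-14) in SjSS. The difference of these responses, tested as an interaction of strain and AC, was 4.63 (SE 1.03, edgeR adjusted p = 0.00148). Without replicate 1 of the B6 controls, which held 11 of the 18 Il6 counts of that group, it was 3.97 (edgeR adjusted p = 0.0426). The direct difference between AC-treated SjSS and B6, which uses no control sample, was 3.72 (SE 0.20, edgeR adjusted p = 1.48e-11). CpG raised the Il6 level 209-fold in B6 (7.71 on the log2 scale) and 256-fold in SjSS as fitted, responses whose interaction was 0.29 (SE 0.94, edgeR adjusted p = 0.907). The CpG-treated strains themselves differed by -0.62 (SE 0.18, SjSS minus B6, edgeR adjusted p = 0.0196), which was past the test but under the log2 fold threshold of 1.3 used for a call.

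**Figure D1:**
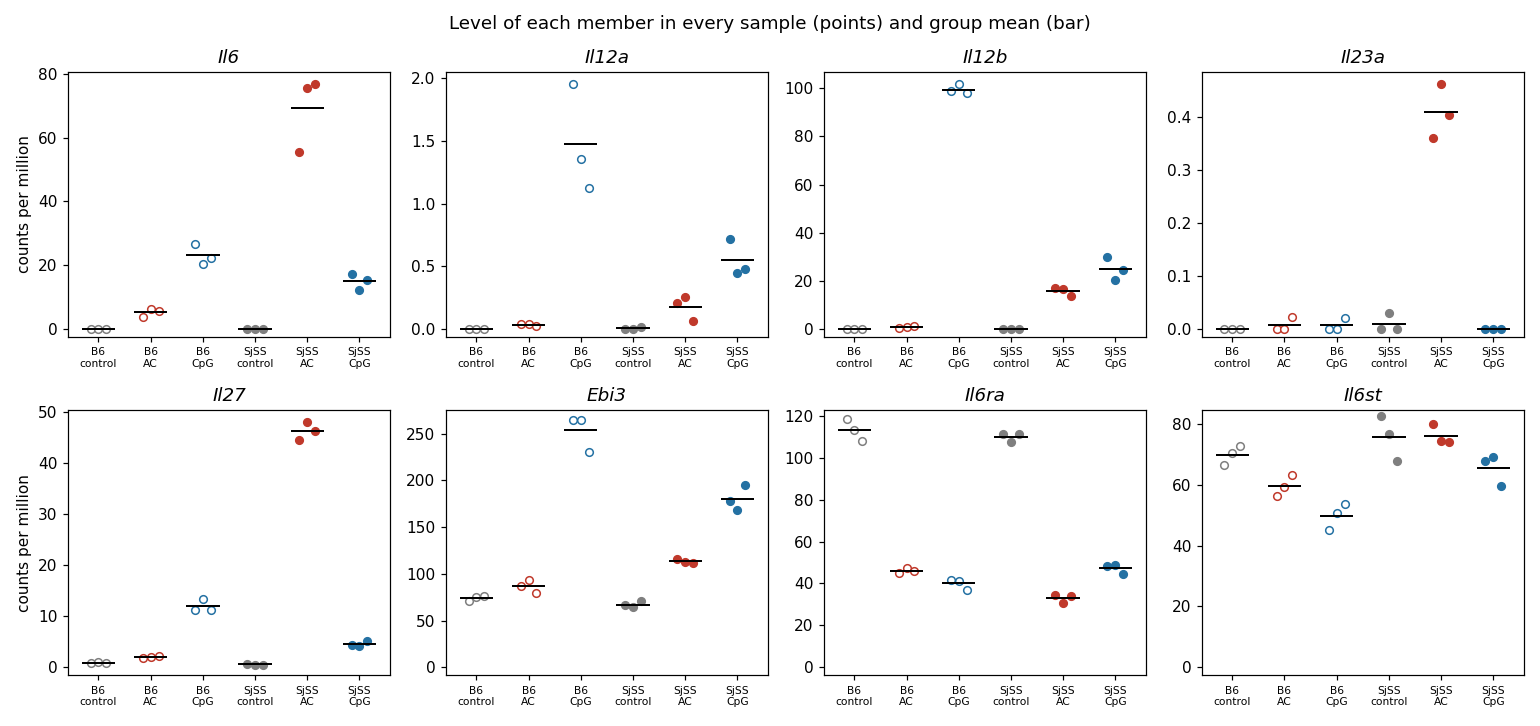
CPM (vertical axis, linear from 0, a separate scale per gene) of the 8 genes in each of the 18 samples (points, open for B6 and filled for SjSS) with the group mean as a bar. Il6 and Il27 are highest in SjSS AC at means of 69.3 and 46.3, whereas Il12b is highest in B6 CpG at 99.5.

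Il12b, which encodes the p40 chain shared by IL-12 and IL-23, was raised by both stimuli in both strains, most of all by CpG in B6. Control samples gave 0.048, 0.0626 and 0.0178 CPM in B6 and 0.0737, 0 and 0.0906 in SjSS. CpG samples gave 98.9, 102 and 97.9 CPM in B6 against 29.7, 20.6 and 24.6 in SjSS. AC samples gave 0.457, 0.965 and 1.18 CPM in B6 against 17.2, 16.7 and 13.6 in SjSS. The strains thus changed places: with CpG every B6 sample was higher and with AC every SjSS sample was higher, with no overlap in either case.

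The Il12b strain difference was 4.20 log2 units with AC (SE 0.20, SjSS minus B6, edgeR adjusted p = 4.72e-12) and -1.99 with CpG (SE 0.14, edgeR adjusted p = 1.49e-08). Without treatment the strains differed by 0.55 (SE 1.00, edgeR adjusted p = 0.755) on a total of 7 counts in B6 and 9 in SjSS. AC raised Il12b by 4.27 in B6 and by 7.92 in SjSS, and the interaction was 3.65 (SE 1.23, edgeR adjusted p = 0.0254). That interaction missed the threshold without replicate 1 (3.53, adjusted p = 0.102) or replicate 2 (3.35, adjusted p = 0.115) of the B6 controls in edgeR. CpG raised Il12b by 11.12 in B6 and 8.58 in SjSS. Their interaction, -2.54 (SE 1.07), missed the threshold in edgeR (adjusted p = 0.184) and passed it in DESeq2 (-2.59, adjusted p = 0.0111), so that the call depended on the test.

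Il12a, which encodes p35, stayed at low levels throughout and was highest with CpG in B6. Its counts in the 3 samples were 97, 51 and 52 in B6 CpG and 32, 18 and 21 in SjSS CpG. AC samples held 2, 2 and 1 counts in B6 and 8, 12 and 3 in SjSS. No count was found in the B6 controls and 1 in the SjSS controls. Against a floor of 3 counts over a group, CpG raised Il12a at least 83.4-fold in B6. In SjSS the ratio was 79.0, with a 95% interval from counting error alone of 13.7 to 3164. With AC it was at least 1.88-fold higher in B6 and 25.2-fold higher in SjSS (interval 4.09 to 1038).

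Il12a showed the same exchange of strains as Il12b, on fewer counts. It was higher in SjSS with AC (log2 difference 2.29, SE 0.67, edgeR adjusted p = 0.00882) and lower in SjSS with CpG (-1.43, SE 0.39, edgeR adjusted p = 0.0165). The AC difference was 1.91 (edgeR adjusted p = 0.052) without replicate 2 of the SjSS AC samples. The CpG difference was no longer called without replicate 1 of B6 CpG, or replicate 2 or 3 of SjSS CpG, ranging from -1.68 to -1.17 over all samples left out. The AC response in B6, with 5 counts in all (edgeR adjusted p = 0.0334), lost its call without any one of 5 of the 6 samples compared.

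Il23a, the p19 chain that makes IL-23 with p40, was found above the floor in 1 of the 6 groups. The SjSS AC samples held 14, 22 and 18 counts, or 0.362, 0.463 and 0.404 CPM. In the remaining 5 groups the total was 0 or 1 count per group. It passed the filter on low counts through the SjSS AC samples alone. Its ratio was 59.1 against SjSS controls (interval from counting error 10.2 to 2378) and 61.1 against AC-treated B6 (interval 10.5 to 2458), given as a description with no test because of that filter. CpG, which gave the highest Il12b level of the series in B6, left Il23a at 1 count in B6 and 0 in SjSS.

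Il27, which encodes p28, had the largest called interaction of the members. Control samples were at 0.8, 1.11 and 0.852 CPM in B6 and 0.737, 0.444 and 0.507 in SjSS. With AC the values were 1.81, 1.93 and 2.27 CPM in B6 and 44.6, 48 and 46.3 in SjSS. With CpG they were 11.3, 13.4 and 11.2 CPM in B6 and 4.32, 4.17 and 5.09 in SjSS. None of these 6 groups overlapped another. AC raised Il27 by 1.13 log2 units in B6 (SE 0.16, edgeR adjusted p = 1.59e-05), past the test but under the fold threshold, and by 6.32 in SjSS (SE 0.15, edgeR adjusted p = 1.74e-16). The interaction of strain and AC was 5.19 (SE 0.23, edgeR adjusted p = 9.79e-12). CpG raised it by 3.71 in B6 and 2.97 in SjSS, and the CpG-treated strains differed by -1.40 (SE 0.12, SjSS minus B6, edgeR adjusted p = 1.48e-07). It was also the member that differed past the test between the untreated strains, at -0.66 (SE 0.20, edgeR adjusted p = 0.0258).

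Ebi3, the partner of p28 and p35, was well expressed without any stimulus and moved less. Its mean was 74.4 CPM ± 2.83 (SD, n = 3) in B6 controls, 86.8 ± 6.95 with AC and 253 ± 19.9 with CpG. In SjSS the corresponding means were 67.2 ± 3.21, 113 ± 1.96 and 180 ± 13.5 CPM. CpG raised Ebi3 past both thresholds in B6 (1.77, SE 0.07, edgeR adjusted p = 1.5e-13) and in SjSS (1.42, SE 0.07, edgeR adjusted p = 4e-12). AC raised it by 0.22 in B6 (edgeR adjusted p = 0.0159) and by 0.75 in SjSS (edgeR adjusted p = 2.23e-08). Both interactions passed the test at small size, 0.53 for AC (edgeR adjusted p = 0.000313) and -0.34 for CpG (edgeR adjusted p = 0.0454). Ebi3 overlaps the opposite-strand gene Gm16712, and Il27 overlaps Apobr on the opposite strand. The strand setting of the counting is not given in the sources used here, so reads of these pairs may not be told apart.

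The ligand-binding receptor gene Il6ra went the other way and fell with both stimuli. It was at 118, 113 and 108 CPM in B6 controls and 112, 108 and 111 in SjSS controls. AC lowered it to 45, 47.6 and 45.9 CPM in B6 and 34.7, 30.6 and 34 in SjSS. CpG lowered it to 41.8, 41.1 and 37.1 CPM in B6 and 48.4, 48.7 and 44.7 in SjSS. Treated samples did not overlap control samples, and the group with the highest Il6 level, SjSS AC, had the lowest Il6ra level. The log2 changes were -1.29 with AC (SE 0.06, edgeR adjusted p = 1.67e-11) and -1.50 with CpG in B6, and -1.73 with AC and -1.22 with CpG in SjSS. Of these the AC change in SjSS and the CpG change in B6 exceeded the fold threshold. The fall with AC was larger in SjSS by 0.44 (SE 0.08, edgeR adjusted p = 0.000436), and the interaction with CpG was 0.28 (edgeR adjusted p = 0.0575). Il6ra overlaps Gm42809 on the opposite strand, and its estimated counts were not whole numbers in 15 of 18 libraries, so some reads were divided between genes. Counts were also not whole for Ebi3 in 18 libraries, for Il12b and Il6st in 9 each and for Il6 in 6.

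Il6st, which encodes gp130, changed little. Group means lay between 49.9 ± 4.44 CPM in B6 CpG and 76.1 ± 3.32 in SjSS AC. CpG lowered it by 0.49 log2 units in B6 (SE 0.08, edgeR adjusted p = 3.26e-05), a change under the fold threshold. AC changed it by -0.23 in B6 (edgeR adjusted p = 0.0282) and by 0.01 (SE 0.08, edgeR adjusted p = 0.955) in SjSS. It was higher in SjSS than in B6 with AC (0.35, edgeR adjusted p = 0.0012) and with CpG (0.39, edgeR adjusted p = 0.00175).

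**Figure D2:**
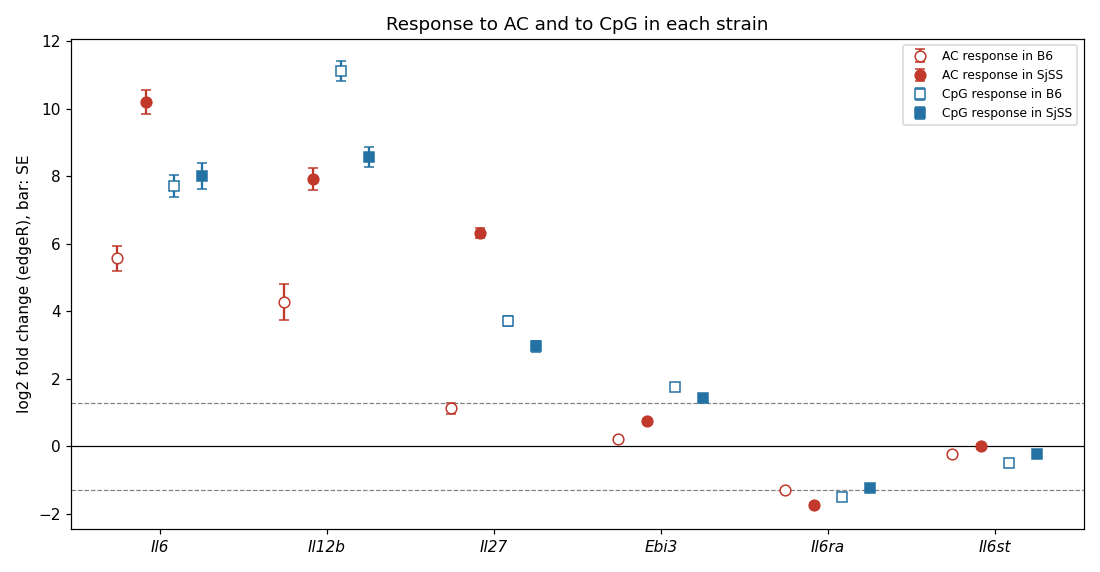
Log2 fold change against untreated cells of the same strain (vertical axis, bars are SE, dashed lines at the threshold of 1.3) for the 6 members with enough counts in the controls, with AC as circles and CpG as squares, open for B6 and filled for SjSS. Il6 and Il27 lie higher with AC in SjSS (10.21 and 6.32) than in any other response, Il12b lies highest with CpG in B6 (11.12), and Il6ra lies below 0 in all 4 responses.

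Counted together, a member was called when its adjusted p was under 0.05 and its log2 fold change over 1.3 in size. AC raised 3 of the 8 members in B6, against 2.43% of the 15789 tested genes called higher in that comparison, and lowered 0 (2.04% of tested genes). In SjSS, AC raised 5 (7.09%) and lowered 1 (5.83%). CpG raised 5 (5.86%) and lowered 1 (6.88%) in B6, and raised 5 (4.81%) and lowered 0 (4.45%) in SjSS. The 5 raised by AC in SjSS were Il6, Il12a, Il12b, Il23a and Il27, and those raised by CpG in both strains held Ebi3 in place of Il23a. The responses of a strain share their control samples. All 8 members passed the filter on low counts, Il23a and Il12a mainly through their high groups, so these counts describe the list and are not a test of it.

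By the adjusted p alone the background was far higher, so that membership of these counts says less. AC then raised 5 members in B6 (20.0% of tested genes) and lowered 2 (18.3%), and raised 6 in SjSS (28.6%) and lowered 1 (29.4%). CpG raised 5 in B6 (28.1%) and lowered 2 (29.8%), and raised 5 in SjSS (27.8%) and lowered 2 (26.4%). The receptor genes Il6ra and Il6st were the 2 lowered by CpG in each strain and by AC in B6.

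Between strains, 0 untreated members were called higher (1.3% of tested genes) or lower (0.716%) in edgeR, and 0 in DESeq2. By the adjusted p alone 0 were higher (9.04%) and 1, Il27, was lower (10.6%), the same counts as at an unadjusted p under 0.05. With AC, 5 members were called higher in SjSS (6.24%) and 0 lower (2.69%). Il23a, counted here and by the adjusted p alone, passed the filter through the SjSS AC samples alone, so its call is no test. By the adjusted p alone 7 were higher (24.0%) and 1, Il6ra, was lower (25.5%). With CpG, 3 were called lower in SjSS (0.792%), namely Il12a, Il12b and Il27, and 0 higher (1.82%). By the adjusted p alone 5 were lower (9.57%), Il6 and Ebi3 joining the 3, and 2, Il6ra and Il6st, were higher (10.2%). Il6, Il12a, Il12b, Il27 and Ebi3 were thus each higher in SjSS with AC and lower with CpG past the test, while Il6ra was lower with AC and higher with CpG.

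The interaction of strain and AC was called for 3 members, Il6, Il12b and Il27, all higher (4.76% of tested genes), and 0 lower (2.77%). By the adjusted p alone 4 were higher (19.6%), with Ebi3, and Il6ra was lower (18.3%). The interaction of strain and CpG was called for 0 members higher (0.285%) and 0 lower (0.329%) in edgeR, and for 1 lower in DESeq2, Il12b. By the adjusted p alone 0 were higher (3.23%) and 1, Ebi3, was lower (2.62%), and at an unadjusted p under 0.05 there were 2 higher and 3 lower.

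**Figure D3:**
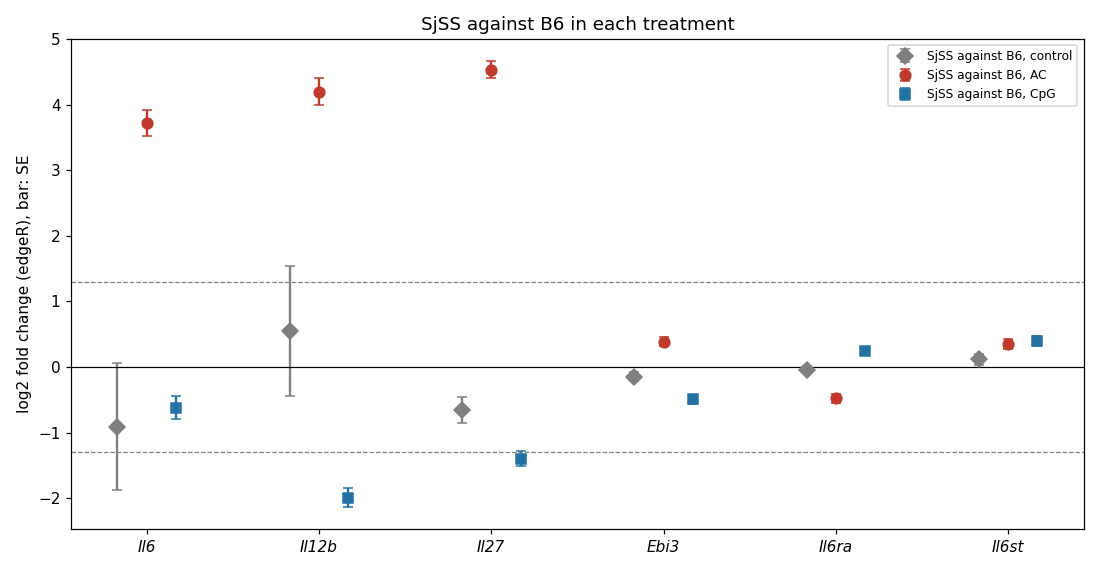
Log2 difference of SjSS from B6 (vertical axis, bars are SE, dashed lines at 1.3) in untreated, AC and CpG samples for the same 6 members. With AC, Il6, Il12b and Il27 lie between 3.72 and 4.53, whereas with CpG the Il12b and Il27 points lie at -1.99 and -1.40.

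Levels per kilobase of exon allow the 2 chains of a dimer to be set side by side. For IL-12, Il12b exceeded Il12a by 58.1 times in B6 CpG (50.6 against 0.871 CPM per kilobase), 39.4 times in SjSS CpG and 78.0 times in SjSS AC. In B6 AC the ratio was 22.5 times, on 5 counts of Il12a. For IL-23, both chains were above the floor in SjSS AC alone, with Il12b at 8.04 and Il23a at 0.182 CPM per kilobase, a ratio of 44.2 times. No ratio is given for the groups with 0 or 1 count of Il12a or Il23a. For IL-27, the excess of Ebi3 over Il27 was 71.6 times in B6 controls and 106 times in SjSS controls. It was 18.7 times in B6 CpG and 2.16 times in SjSS AC, where Il27 reached 45.3 ± 1.69 and Ebi3 98.1 ± 1.70 CPM per kilobase (SD, n = 3). The SjSS AC samples were therefore those in which the 2 chains of IL-27 came nearest to each other. For the IL-6 receptor, Il6ra exceeded Il6st by 2.08 times in B6 controls and 1.87 times in SjSS controls. The ratio was 0.994 and 1.03 in B6 with AC and CpG, and 0.559 and 0.926 in SjSS. These ratios compare group means, are of RNA and say nothing of protein, and were not tested. They also depend on the length used. All exons of Il6st together span 11099 bases and its longest transcript 8678, against 8642 and 8639 for Il6ra. Over the longest transcript the ratios to Il6st, Il12a and Il23a are therefore lower.

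**Figure D4:**
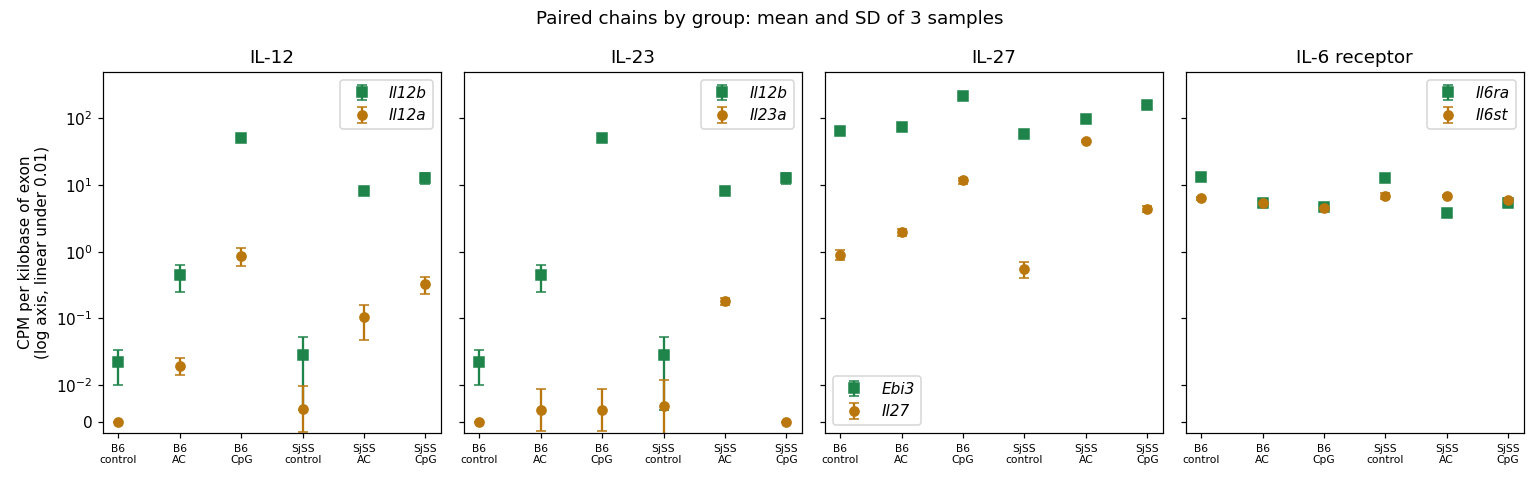
Level per kilobase of exon (CPM per kilobase, log axis that is linear under 0.01) of the chains of IL-12, IL-23, IL-27 and the IL-6 receptor in the 6 groups, as mean and SD of 3 samples. The IL-27 chains are closest in SjSS AC, at 98.1 for Ebi3 and 45.3 for Il27, and the receptor chain Il6ra falls from above Il6st in controls to below it in SjSS AC.

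Among the other ligands of the IL-6 family, Lif and Osm had their highest mean in SjSS AC, as Il6 did. Unlike Il6 they fell with CpG, and Il11 was highest in B6 AC. Of 8 listed, Il31 was not in the table and Ctf1 was not tested. Il11 rose with AC in B6 (2.65, SE 0.61, edgeR adjusted p = 0.00189) from 31 to 172 counts over 3 samples. Its change with AC in SjSS was 0.17 (edgeR adjusted p = 0.837), the interaction was -2.49 (edgeR adjusted p = 0.0296), and it fell with CpG in both strains to 5 and 7 counts. Lif, a cytokine that signals through gp130 and the Lif receptor, rose with AC in SjSS from 3.09 ± 1.52 to 10.3 ± 1.08 CPM (1.76, SE 0.30, edgeR adjusted p = 4.47e-05). In B6 Lif rose with AC by 1.15 (edgeR adjusted p = 0.00543), to 4.58 ± 0.46 CPM, and with CpG it fell by 1.76 in each strain. The Lif interaction of strain and AC was 0.62 (edgeR adjusted p = 0.281), so its responses to AC were not shown to differ. Osm fell with CpG to 7.75 ± 1.19 CPM in B6 (-1.22, edgeR adjusted p = 2.32e-05) and to 7.12 ± 1.01 in SjSS (-0.98, edgeR adjusted p = 0.000332), both under the fold threshold.

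Among the other receptors, 7 of 9 were tested, and AC raised 3 of them past both thresholds in SjSS (7.09% of tested genes) and 1, Il23r, in B6 (2.43%). Il23r, the receptor chain for IL-23, rose with AC by 2.52 in B6 (SE 0.55, edgeR adjusted p = 0.00113), from 14 counts over the controls to 72. In SjSS it rose by 6.37 (SE 0.60, edgeR adjusted p = 2.57e-08), from 4 counts over the SjSS controls to 326 with AC. CpG also raised Il23r, by 4.60 in B6 and 4.47 in SjSS, so that its level followed both stimuli where that of Il23a did not. Il12rb1, the chain shared by the IL-12 and IL-23 receptors, rose with AC from 2.90 ± 0.22 to 7.92 ± 1.05 CPM in SjSS. In B6 it was at 2.28 ± 0.71 CPM in controls and 1.28 ± 0.27 with AC, and the interaction was 2.27 (SE 0.33, edgeR adjusted p = 2.06e-05). Il12rb2, the second IL-12 receptor chain, rose with AC by 1.56 in SjSS (edgeR adjusted p = 9.31e-06), from 0.63 ± 0.08 to 1.86 ± 0.18 CPM. In B6 it went from 1.21 ± 0.34 to 1.96 ± 0.27 CPM, so its mean with AC was no higher in SjSS. Il27ra, which pairs with gp130 for IL-27, changed by 0.80 in B6 and 0.70 in SjSS with AC and by 0.59 and 0.16 with CpG. None of these Il27ra changes reached the fold threshold. Lifr was lowered past both thresholds by AC and by CpG in both strains, from 5.68 ± 1.37 CPM in B6 controls to 2.13 ± 0.25 with AC.

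All 11 genes of the signalling and receptor shedding list were tested. Jak2, Socs1 and Socs3 were each called higher with AC in SjSS, and each had a called strain by AC interaction. Socs1, an inhibitor of Janus kinases, went from 2.01 ± 0.52 to 313 ± 19.1 CPM with AC in SjSS and from 3.10 ± 0.37 to 12.0 ± 1.87 in B6. Socs3, the inhibitor that binds gp130, went from 5.46 ± 1.49 to 177 ± 12.9 CPM with AC in SjSS. Its highest levels were with CpG, at 648 ± 65.2 CPM in B6 and 311 ± 40.5 in SjSS. The Socs3 interaction was 3.42 (SE 0.20, edgeR adjusted p = 3.16e-10) with AC and 0.05 (edgeR adjusted p = 0.925) with CpG.

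Of the 12 regulators of the cytokine genes and of their mRNA, AC raised 6 past both thresholds in SjSS (Arid5a, Irf1, Nfkb1, Nfkbiz, Rel and Zfp36), against 7.09% of tested genes. In B6 edgeR called 0 of them higher (2.43% of tested genes), DESeq2 called 0 and 7 were higher at an unadjusted p under 0.05. In the same samples 7 were higher at an adjusted p under 0.05 (20.0% of tested genes) and 2 lower (18.3%). Irf1, an interferon regulatory factor, went from 78.8 ± 9.99 to 1370 ± 84.0 CPM in SjSS and from 73.0 ± 3.69 to 128 ± 2.72 in B6. Arid5a, known to stabilise Il6 mRNA, went from 11.2 ± 1.41 to 132 ± 7.45 CPM in SjSS and from 11.0 ± 0.16 to 7.12 ± 0.40 in B6. Its interaction of strain and AC was 4.19 (SE 0.18, edgeR adjusted p = 5.86e-12). Zc3h12a, which encodes a nuclease that degrades Il6 mRNA, had a mean of 52.9 CPM in B6 controls and 34.3 in SjSS controls. With AC its mean was higher in both strains, at 71.4 ± 3.83 CPM in B6 and 71.3 ± 2.52 in SjSS. The Zc3h12a means were highest with CpG, at 209 CPM in B6 and 153 in SjSS. Zfp36, also of this list, was highest in SjSS AC, at 342 ± 25.8 CPM against 98.7 ± 6.67 in SjSS controls. In B6 its mean was 105 CPM in controls, 156 with AC and 284 with CpG, and in SjSS CpG it was 165. Nfkbiz, an atypical IκB protein, was highest with CpG, at 946 ± 103 CPM in B6 and 727 ± 89.5 in SjSS, against 214 ± 16.2 in SjSS AC. The regulators that were highest in SjSS AC thus included Irf1, Arid5a and Zfp36, as Il6 and Il27 were. Nfkbiz, like Il12b, was highest in B6 CpG. The list of regulators had a median log2 change of 1.39 with AC in SjSS and 0.37 in B6, against -0.02 and 0.00 over all tested genes.

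The genes whose log2 CPM followed each member most closely over the 18 samples were sought among 12294 genes with a mean of at least 1 CPM. For Il6 they were Acod1 and Icam1 (Pearson r = 0.988 each) and Icosl (0.986). For Il12b they were Ms4a6c, Nfkbia and Acsl1, for Il27 Sav1, Cd40 and Coa5, and for Ebi3 Acsl5, Pilrb1 and Itgal. Cd40, a costimulatory receptor, was at 273 CPM in SjSS AC and 67.7 in B6 CpG, the same order as Il27. Il12a was followed by Gm6206, Ebi3 and Acsl5. The nearest to Il23a were Il15, Minpp1 and March5, a gene whose symbol the table shows as a date and which was identified by its position, and Il15 stood at 107 CPM in SjSS AC and at 5.61 to 7.21 elsewhere. Il6ra was followed by Eif4b, Traf3ip3 and Ndst1, and Il6st by Pmp22, Timp2 and Atp6v0d2. The samples share groups of 3, so these coefficients mainly compare 6 group means and carry no test.

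The genome positions of the members bear on the strain comparison, since SjSS mice carry NOD intervals. Il12a (chr3:68690644-68698548, mm10) and Il6ra (chr3:89864059-89913197) lie on chromosome 3, where Aec1 is, and the exact ends of the interval were not given in the sources used here. The remaining members lie on chromosomes 5 (Il6), 7 (Il27), 10 (Il23a), 11 (Il12b), 13 (Il6st) and 17 (Ebi3). Within 5 Mb of Il6ra, 14 of 142 tested genes were called between untreated strains, or 9.86% (95% exact binomial interval 5.50 to 16.0), against 2.01% of all tested genes and 4.57% of those on chromosome 3. Near Il12a it was 2 of 37, near Il6 0 of 106 and near Il12b 1 of 51. With AC, 12 of those 51 genes within 5 Mb of Il12b were called between strains, all higher in SjSS. That is 23.5% (interval 12.8 to 37.5), against 8.93% of all tested genes. The share depended on the window, with 0 of 17 genes called within 2 Mb of Il12b and 16 of 114 within 10 Mb. With AC it was 5 of 37 within 5 Mb of Il12a, 18 of 142 near Il6ra and 9 of 106 near Il6. Il6ra itself did not differ detectably between the untreated strains, at -0.04 (SE 0.06, edgeR adjusted p = 0.695). Of the members called higher in SjSS than in B6 under AC, Il12a (2.29, edgeR adjusted p = 0.00882) lies on chromosome 3. The others, Il6, Il12b, Il23a and Il27, lie outside chromosomes 1 and 3. Among them the call of Il23a is no test, as it passed the filter through the SjSS AC samples alone. Whether NOD sequence near Il12a or Il6ra affects how their reads were counted was not tested.

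**Figure D5:**
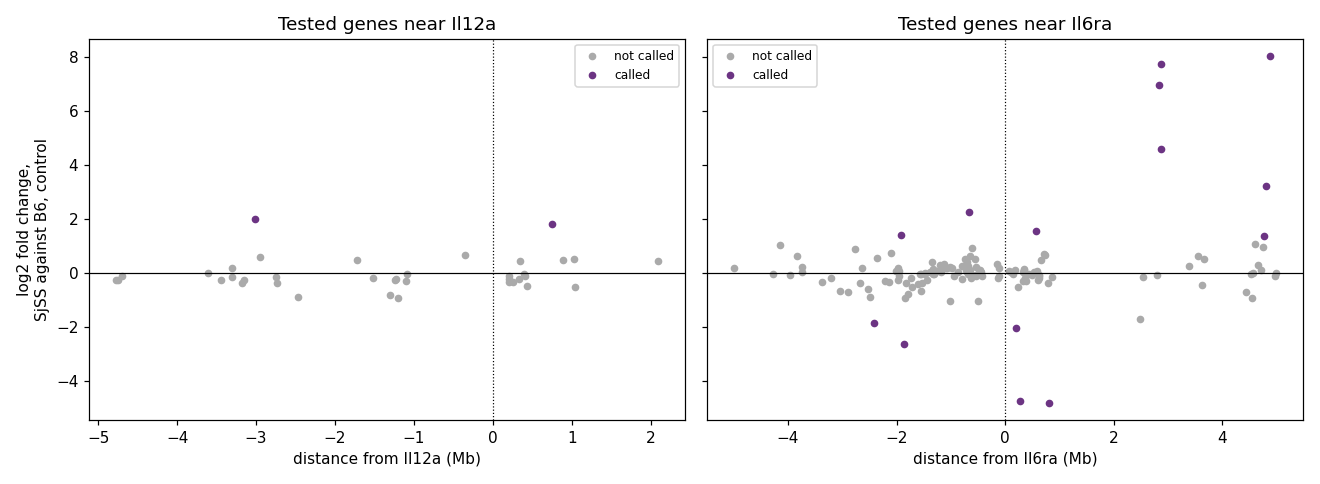
Log2 difference of untreated SjSS from B6 (vertical axis) for the tested genes within 5 Mb (horizontal axis, distance in Mb) of Il12a and Il6ra, with called genes in purple. Of the genes near Il6ra, 14 of 142 are called and range from -4.78 to 8.01, whereas Il6ra itself, at distance 0, is at -0.04.

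The identity of the cells was checked with marker lists, each given as the summed CPM of its genes. All 8 macrophage markers were found in each group, with sums of 15101 to 23745, and Csf1r and Adgre1 were among the most abundant. The thymocyte and T cell list was highest in SjSS AC, at 13.5 to 18.1 against 4.41 to 11.5 elsewhere, but most of the sum was Cd4, at 13.96 CPM on average in SjSS AC, 8.60 in B6 controls and 3.57 in B6 AC. The genes that mark thymocytes more closely differed from that sum. Rag1, part of the recombinase of developing lymphocytes, had 24 counts over the B6 AC samples, 3 in SjSS AC and 0 in the other 4 groups. From B6 controls to B6 AC, the counts went from 0 to 18 for Dntt, from 1 to 10 for Themis, from 1 to 26 for Cd8a and from 2 to 14 for Cd8b1. In SjSS AC these 4 genes had 1, 0, 10 and 9 counts, against 2, 1, 12 and 4 in SjSS controls. Rag1, Dntt, Themis, Cd8a and Cd8b1 thus had more counts in B6 AC than in SjSS AC, as had Cd3d, Cd3e and Bcl11b. Like Cd4, other genes of the list went the other way. Lck had 39 counts in B6 AC and 86 in SjSS AC, Cd3g 8 and 14, and Trac 4 and 7. The dendritic cell list, with 6 of 7 genes in the table, was at 2.80 to 3.75 in SjSS AC and 1.17 to 2.72 elsewhere. Within it, Xcr1 was at 2.13 CPM in SjSS AC against 0.279 in SjSS controls, while Clec9a was at 0.263 against 0.536 and Ccr7 at 0.232 against 0.349. The neutrophil list, with 4 of 7 genes in the table, was highest in B6 CpG, at 11.2 to 12.8, the group in which Il12a, Il12b and Ebi3 were also highest. The fibroblast list was at 140 to 219 in SjSS and 35.2 to 122 in B6. In SjSS it was at 157 to 219 without treatment, 177 to 219 with AC and 140 to 184 with CpG. B cell sums were at most 1.12 and NK cell sums at most 0.399. The part of these cells in the values of the members was not tested, and in such bulk samples fewer cells of a type and less RNA per cell cannot be told apart.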

How the data were processed

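RNA-seq of 18 BMDM samples was deposited by the authors as estimated counts per gene (20615 genes), made with STAR on mm10 and Partek's expectation-maximisation counting, not normalized; 41.1% of values are not whole, since reads that fit several genes were divided. The paper's methods name no strand setting. The processing notes also name DESeq2. Here counts were rounded and fitted with edgeR 4.0.16 (R 4.3.3): filterByExpr left 15789 genes, TMM scaling, quasi-likelihood F tests with 1 mean for each of 6 groups, and Benjamini-Hochberg adjustment over all tested genes. SE is the log2 fold change over the square root of F. Called means adjusted p under 0.05 and log2 fold change over 1.3 in size; past the test means the adjusted p alone. The log2 CPM used for likeness had a prior count of 2. DESeq2 1.42.0 was an alternative. Genes were placed and exon lengths taken from GENCODE M21 (GRCm38). On simulated data with 200 genes changed by 2 log2 units, edgeR recovered 200 for the AC response in SjSS (15284 genes, 0 false calls) and 199 for the interaction with AC (2 false calls).

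Members, lists and rules were chosen with earlier results of these data known. Named genes were all members, Il12rb1, Il12rb2, Il23r, Il27ra, Lif, Osm, the gene with the largest called change of each list in each comparison, and the 3 genes most like each member. Some genes that this rule names are not reported here. Lifr, Zc3h12a and Zfp36 were named after their values were seen. A bound uses a floor of 3 counts over a group, and intervals (95%) cover counting error only. Depth was 30688336 to 57139662 counts per sample, so genes under about 1 CPM rest on few reads. Replicates differed beyond sampling noise (chi-square per gene of 8.11 to 33.6). Replicate numbers deviated together with every pair over 0.1 only for the CpG response in B6 (same-number r from 0.234 to 0.486); the blocked fit changed no member call there. The paper gives other times after washing than the labels, whose times are used.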

Additional observations from a re-analysis of the deposited data

Results flagged for a closer look

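The response to AC differed between the strains, by the interaction of strain and AC in edgeR, for Il6 (log2 difference 4.63), Il12b (3.65) and Il27 (5.19), each larger in SjSS. The Il6 and Il12b values rest on control groups with 7 to 18 counts over 3 samples, and that of Il27 on control groups with 83 to 151 counts. Every SjSS AC sample was above every B6 AC sample for each of these genes.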

How the results depend on the processing

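Over 1139 values of single members under alternatives, 1091 kept their direction and side of the threshold, 18 lost and 24 gained a call, and 6 changed sign. The sign changes were in values close to 0 or on few counts: Il6st with AC in SjSS was -0.000647 when only the groups compared were fitted and ranged from -0.068 (without replicate 3 of the SjSS controls) to 0.075 with a replicate left out, with -0.029 without replicate 1 of SjSS AC; the Il12a interaction with AC ranged from -0.076 (without replicate 1 of the SjSS controls) to 2.29; and the Il6 interaction with CpG ranged from -0.37 (without replicate 1 of either control group) to 1.26. With no fold threshold, the counts of members became 5 higher and 2 lower for AC in B6, 2 lower for CpG in B6, 2 lower for CpG in SjSS, 1 lower between untreated strains, 1 lower between strains with AC, 2 higher and 5 lower with CpG, 1 lower for the interaction with AC and 1 lower for that with CpG. With a log2 fold threshold of 2, the count lowered by AC in SjSS became 0, that lowered by CpG in B6 0, and that lower in SjSS with CpG 0. For AC in B6 the count lowered was 1 with no filter on low counts, 1 with only the groups compared and 0 to 1 with a replicate left out, Il6ra lying next to the fold threshold; DESeq2 called 1 member (Il12b) lower for the interaction with CpG. Levels per kilobase over the longest transcript were 1.14 for Il12a in B6 CpG, 0.237 for Il23a in SjSS AC and 8.77 for Il6st in SjSS AC, since that length is shorter than the exon union. Within 2 Mb of Il12b, 0.0% of genes were called between untreated strains. The replicate block and the block within each strain, added after the data were seen, changed no member call; the Il6 interaction with AC was 4.63 with the replicate block (edgeR adjusted p = 0.00312). With the pairing read from the data, 3 of 3 samples correlated best with their own number in the AC and CpG responses of SjSS and the CpG response of B6. Members that the filter removed when only some groups were fitted have no value there. Depth limits Il12a and Il23a, which had 0 or 1 count in control groups.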
